A study of Mus musculus with 4 samples.

Results

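The genes described here are the FoxO transcription factor genes Foxo1, Foxo3 and Foxo4 and 7 genes known as FoxO targets, Txnip, S1pr1, Klf2, Sesn1, Sesn3, Ccng2 and Cdkn1b. They were taken by symbol from the deposited expression table, and all 10 members were found among its 14936 genes. The table covers mouse macrophages derived from bone marrow, primary cells matured from marrow cells with M-CSF, each treated with IL-4 at 20 ng/ml. The groups were cells labelled wild-type at 12 h, cells labelled Phlpp1-deficient at 12 h, and the same labels at 24 h, with 1 mRNA library in each, called WT-12h, KO-12h, WT-24h and KO-24h below. The WT-labelled pair and the KO-labelled pair are the 12 h and 24 h libraries of one label, with the 12 h value given first. Neither the allele, the strain, the age nor the number of animals is given in the labels, and no group without IL-4 is among the samples.

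FoxO factors are forkhead transcription factors that work downstream of growth factor signalling. The kinase AKT phosphorylates them, 14-3-3 proteins bind the phosphorylated form, and the factor leaves the nucleus and stops driving its targets, which act in cell cycle arrest, stress defence and, in lymphocytes, trafficking. PHLPP1 is a phosphatase that removes an activating phosphate from AKT, so the position of the factors in the cell, which mRNA counts do not show, is the usual point of control.

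Libraries held 36707999 to 41770309 counts, with 13682 to 13814 genes detected in each. Levels are given as CPM, counts scaled to a common library size by TMM, for comparing libraries, and as the deposited FPKM, which also divides by gene length, for comparing genes. Phlpp1 went against the labels, with 42.9 and 62.6 CPM in the KO-labelled pair and 11.9 and 15.6 CPM in the WT-labelled pair (log2 fold 1.93, SE 0.10, edgeR adjusted p = 3.28e-14). Directions below are therefore those of the labels. Gene counts do not show whether an exon is missing, and exchanged labels, which would turn every KO over WT direction below, cannot be told apart from an allele that still gives a transcript. The macrophage markers Csf1r, Adgre1, Cd68 and Lyz2 were high in each library, and all 10 macrophage markers examined exceeded 1 CPM.

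Promoter windows from RefSeq (build GRCm38.p6), running from 250 bases before to 50 bases after a gene's annotated start, were found for 8 of the 10 members, in 9 windows. S1pr1 and Foxo4 had none. The FoxO element GTAAACA, searched on both strands, was in 2 of these 9 windows, those of Txnip and Sesn1, beside 3.65% of all 32851 windows. The related insulin response core CAAAACA was in 1 member window, that of Ccng2, beside 6.28% of all windows. These are letter matches and not measured binding sites. Those of Txnip and Ccng2 are shown with the 250 bases before the start, and that of Sesn1 with 30 bases around it, because these are the members whose windows hold a FoxO-type element. Capitals mark the elements, and in Txnip also the box CACGAG. The windows are chr3:96557707-96557956, chr5:93267323-93267572 and chr10:41810585-41810614, all on the plus strand.
Txnip: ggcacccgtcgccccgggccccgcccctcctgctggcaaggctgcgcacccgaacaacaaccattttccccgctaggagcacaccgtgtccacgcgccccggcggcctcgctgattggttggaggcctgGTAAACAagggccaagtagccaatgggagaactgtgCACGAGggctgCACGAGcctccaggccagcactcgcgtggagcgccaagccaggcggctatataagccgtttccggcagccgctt
Ccng2: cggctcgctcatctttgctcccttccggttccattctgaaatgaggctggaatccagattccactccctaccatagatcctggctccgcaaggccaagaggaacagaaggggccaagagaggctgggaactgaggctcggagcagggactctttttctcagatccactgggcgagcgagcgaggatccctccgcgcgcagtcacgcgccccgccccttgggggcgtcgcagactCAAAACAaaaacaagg
Sesn1: gaaccttctacTGTTTACcagccttttggg

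The Txnip element began 121 bases before the start. Downstream of it lay the CACGAG boxes, beginning 85 and 74 bases before the start with 5 bases between them, an arrangement known as the carbohydrate response element bound by the glucose-sensing factors MondoA and ChREBP. A single CACGAG on either strand was in 6.47% of all windows, and a pair with that spacing was in 1 of 32851, that of Txnip. The Ccng2 core began 16 bases before its RefSeq start, and the Sesn1 element, read on the opposite strand, lay 22 bases after its RefSeq start. For both genes this start lies downstream of the GENCODE start used for the gene positions below, so both elements fall inside the GENCODE gene.

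Per unit of length, Txnip had the highest level of the 10 members in every library and Sesn3 the lowest. Mean FPKM over the 4 libraries was 92.6 ± 12.8 (SD, n = 4) for Txnip, 33.6 ± 2.12 for Sesn1 and 23.2 ± 1.39 for Foxo3, and these ranges did not overlap each other. These SDs run over both genotypes and times and so hold any difference between the groups. Next came S1pr1 at 9.72 ± 2.72, Cdkn1b at 9.08 ± 0.85, Ccng2 at 7.61 ± 1.45, Klf2 at 5.67 ± 0.50 and Foxo4 at 5.58 ± 0.29, where each range overlapped that of the next gene. Foxo1 followed at 3.44 ± 0.14 and Sesn3 at 0.46 ± 0.18, both clear of their neighbours.

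**Figure D1:**
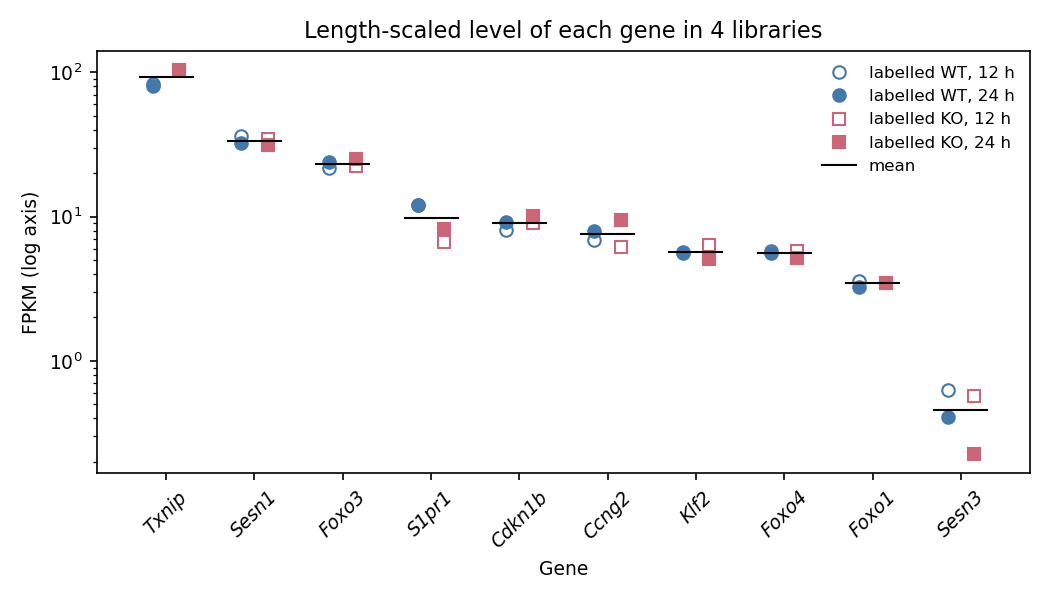
Deposited FPKM of each gene on a log axis, ordered by the mean (line), with circles for the libraries labelled WT and squares for those labelled KO, open at 12 h and filled at 24 h. Txnip, near 100 FPKM, stands above the rest and Sesn3, under 1 FPKM, below them, with Foxo3 the highest of the FoxO genes.

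Among the factors, Foxo3 made up most of the FoxO mRNA. Of the summed FPKM of the 3 genes, Foxo3 took 69.8% and 72.8% in the WT-labelled pair and 71.0% and 74.3% in the KO-labelled pair. Foxo4 took 15.4% to 18.6% and Foxo1 9.98% to 11.6%. Foxo6, the remaining FoxO gene of the mouse, had 0 counts in 3 libraries and 1 count in KO-24h, and was not tested.

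Foxo1 (chromosome 3, 52268336 to 52353221, mm10) stood at 20.2 and 18.6 CPM in the WT-labelled pair and at 18.7 and 18.9 CPM in the KO-labelled pair. The single high value was WT-12h, and the groups overlapped. Foxo3 (chromosome 10, 42181841 to 42276755) stood at 149 and 166 CPM in the WT-labelled pair and at 149 and 166 CPM in the KO-labelled pair. Both later libraries were higher than both earlier ones, by 1.11-fold within each genotype. Foxo4 (chromosome X, 101254528 to 101260873) stood at 29.6 and 29.2 CPM in the WT-labelled pair and at 28.3 and 25.6 CPM in the KO-labelled pair. The latter were the lower at each time. None of the factor genes was called for genotype by edgeR's quasi-likelihood test over both times, with log2 folds of -0.04 for Foxo1 (SE 0.12, adjusted p = 0.908), 0.0046 for Foxo3 (SE 0.071, adjusted p = 0.984) and -0.13 for Foxo4 (SE 0.11, adjusted p = 0.567). No factor gene had an unadjusted genotype p under 0.05 (0 of 3) and DESeq2 called none. For Foxo3 the 95% counting interval of the KO over WT ratio ran from 0.968 to 1.04 at 12 h and from 0.969 to 1.04 at 24 h. For Foxo4 the ratio was 0.956 at 12 h (0.881 to 1.04) and 0.878 at 24 h (0.803 to 0.959), the latter clear of 1, and both Foxo1 intervals included 1.

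**Figure D2:**
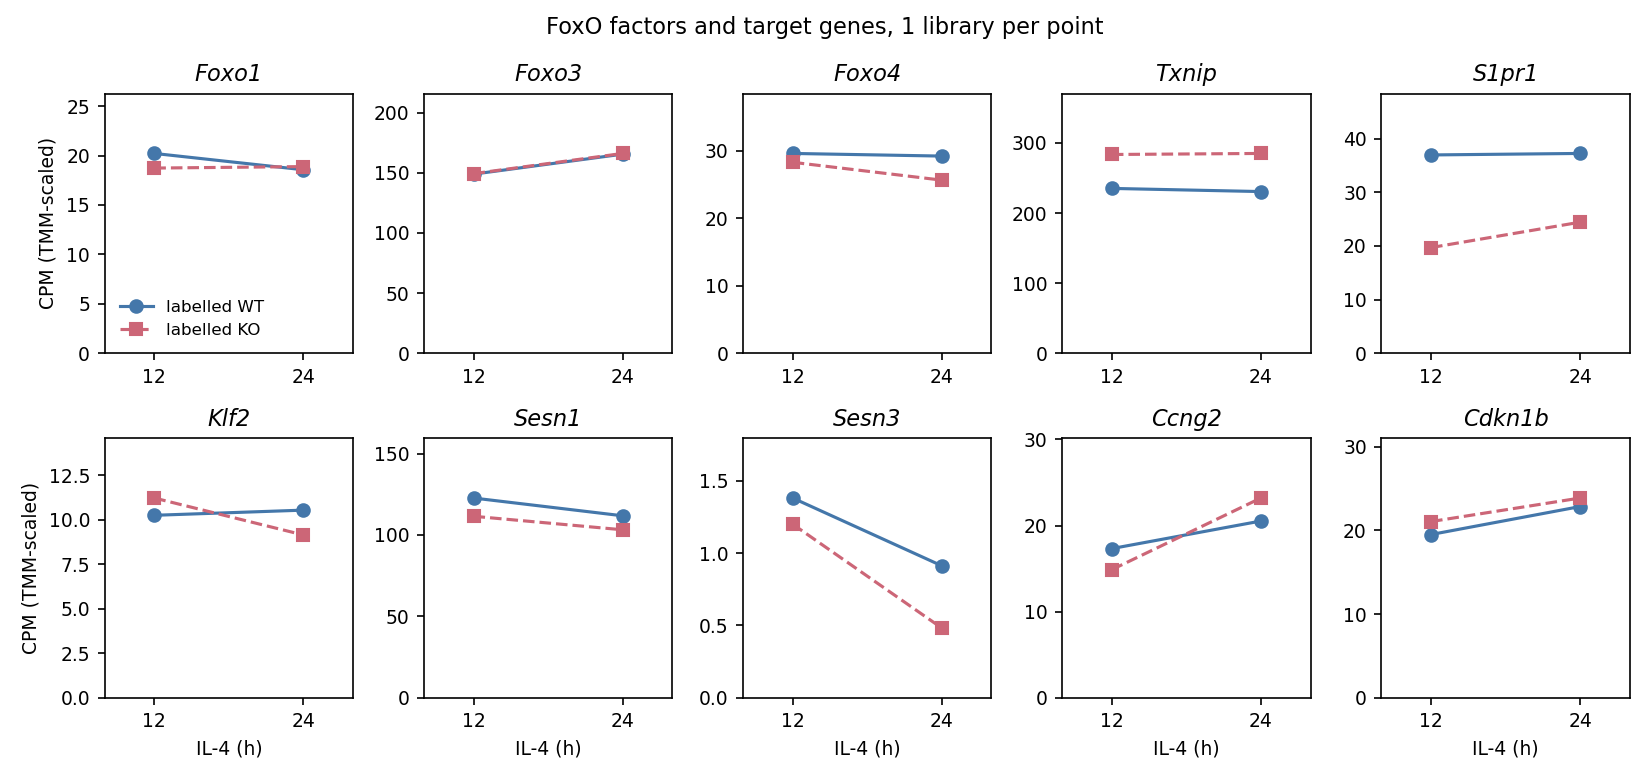
TMM-scaled CPM of each gene at 12 h and 24 h of IL-4, with 1 library per point, circles for libraries labelled WT and squares for those labelled KO, and every axis starting at 0. S1pr1 is lower and Txnip higher in both libraries labelled KO, while the lines of Foxo1, Klf2 and Ccng2 cross.

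Of the 10 members, Txnip was called higher and S1pr1 lower with the KO label, 1 in each direction. Over all 10993 genes tested, 9.52% were called for genotype, 4.18% higher and 5.34% lower, so the members' count of 2 in 10 is not set apart from the table as a whole by this description. The median log2 fold of the 10 members was -0.04, beside -0.0025 over all genes tested, and the median size without sign was 0.11, beside 0.12. In this bulk RNA, fewer cells of a type and less RNA per cell cannot be told apart. With 1 library per group, the p-values measure only the spread left by a model of genotype plus time. edgeR shares this spread across genes, so a p-value does not rest on the gene's own spread alone. That spread may be technical and also holds any genotype difference that varies with time.

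S1pr1 encodes the sphingosine-1-phosphate receptor that guides leukocytes out of tissues, and it is driven by FoxO1 and KLF2 in T cells. It lies on chromosome 3, 115710433 to 115715072. It stood at 37.0 and 37.3 CPM in the WT-labelled pair (1526 and 1347 counts) and at 19.7 and 24.4 CPM in the KO-labelled pair (805 and 911 counts). Both libraries labelled KO were below both labelled WT, and those labelled WT were nearly equal. The KO over WT ratio was 0.533 at 12 h (exact 95% counting interval 0.489 to 0.581) and 0.656 at 24 h (0.602 to 0.714). S1pr1 fell by 0.76 on the log2 scale across both times (SE 0.11, edgeR adjusted p = 7.04e-06), and it was called lower under all 12 alternatives, with adjusted p from 2.17e-10 to 0.0368. Within the libraries labelled KO it was 1.24-fold higher at 24 h than at 12 h (counting interval 1.13 to 1.36), beside 1.01-fold in those labelled WT (0.936 to 1.09), a difference that could not be tested with 1 library each.

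Klf2, a zinc finger factor that restrains inflammatory activation of macrophages and drives S1pr1 in T cells, was not called. It lies on chromosome 8, 72319033 to 72321656. It stood at 10.3 and 10.5 CPM in the WT-labelled pair and at 11.2 and 9.15 CPM in the KO-labelled pair. Those labelled KO held both the highest and the lowest value. The genotype log2 fold was -0.03 (SE 0.16, edgeR adjusted p = 0.944), with 341 to 458 counts per library.

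Txnip encodes an alpha-arrestin that binds thioredoxin and limits glucose uptake. It lies on chromosome 3, 96557957 to 96561883, and an annotated antisense gene overlaps it. It stood at 235 and 231 CPM in the WT-labelled pair and at 284 and 285 CPM in the KO-labelled pair. The groups did not overlap, and within a genotype the times lay within a few CPM of each other. The KO over WT ratio was 1.21 at 12 h (counting interval 1.17 to 1.24) and 1.24 at 24 h (1.20 to 1.27). Txnip rose by 0.29 on the log2 scale across both times (SE 0.065, edgeR adjusted p = 0.00301). The call was lost when time was left out of the model (adjusted p = 0.0896), and also when 1 library was left out as well, with adjusted p = 0.372 without WT-12h, 0.0632 without KO-12h, 0.532 without WT-24h and 0.0744 without KO-24h. The log2 fold stayed between 0.27 and 0.34 over all 12 alternatives.

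The sestrin genes encode stress-induced proteins that restrain mTORC1. Sesn1 (chromosome 10, 41809935 to 41908424) stood at 123 and 112 CPM in the WT-labelled pair and at 111 and 103 CPM in the KO-labelled pair. The latter were lower at each time, by ratios of 0.908 (counting interval 0.873 to 0.946) and 0.923 (0.883 to 0.965), but the groups overlapped across times. Sesn1 was not called (genotype log2 -0.13, SE 0.075, edgeR adjusted p = 0.367). Sesn3 (chromosome 9, 14275067 to 14333101) was near the detection filter, with 57 and 33 counts in the WT-labelled pair and 49 and 18 in the KO-labelled pair. It passed the filter of 1 CPM in 2 libraries through the 12 h libraries, while the other 9 members exceeded 1 CPM in all 4, so its 24 h over 12 h fold is not read as a result. Its KO over WT ratio was 0.869 at 12 h (0.581 to 1.29) and 0.529 at 24 h (0.280 to 0.967), and its genotype fold was not called (log2 -0.50, SE 0.44, adjusted p = 0.599).

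The cell cycle members were not called for genotype. Cdkn1b encodes p27, an inhibitor of cyclin-dependent kinases, and lies on chromosome 6, 134920401 to 134925513. It stood at 19.5 and 22.8 CPM in the WT-labelled pair and at 21.1 and 23.9 CPM in the KO-labelled pair. The later libraries were the higher in both genotypes, and the genotype log2 fold was 0.09 (SE 0.12, edgeR adjusted p = 0.758). Ccng2 encodes cyclin G2, an unconventional cyclin linked to cell cycle arrest, and lies on chromosome 5, 93267257 to 93276231. It stood at 17.3 and 20.5 CPM in the WT-labelled pair and at 14.9 and 23.2 CPM in the KO-labelled pair. Those labelled KO were thus the lowest at 12 h and the highest at 24 h. The KO over WT ratio was 0.859 at 12 h (counting interval 0.770 to 0.959) and 1.13 at 24 h (1.02 to 1.25), while the fold over both times was near 0 (log2 -0.02, SE 0.13, adjusted p = 0.966). Opposite ratios with both counting intervals clear of 1 were seen for 7.45% of all genes tested, and among the members for Ccng2.

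**Figure D3:**
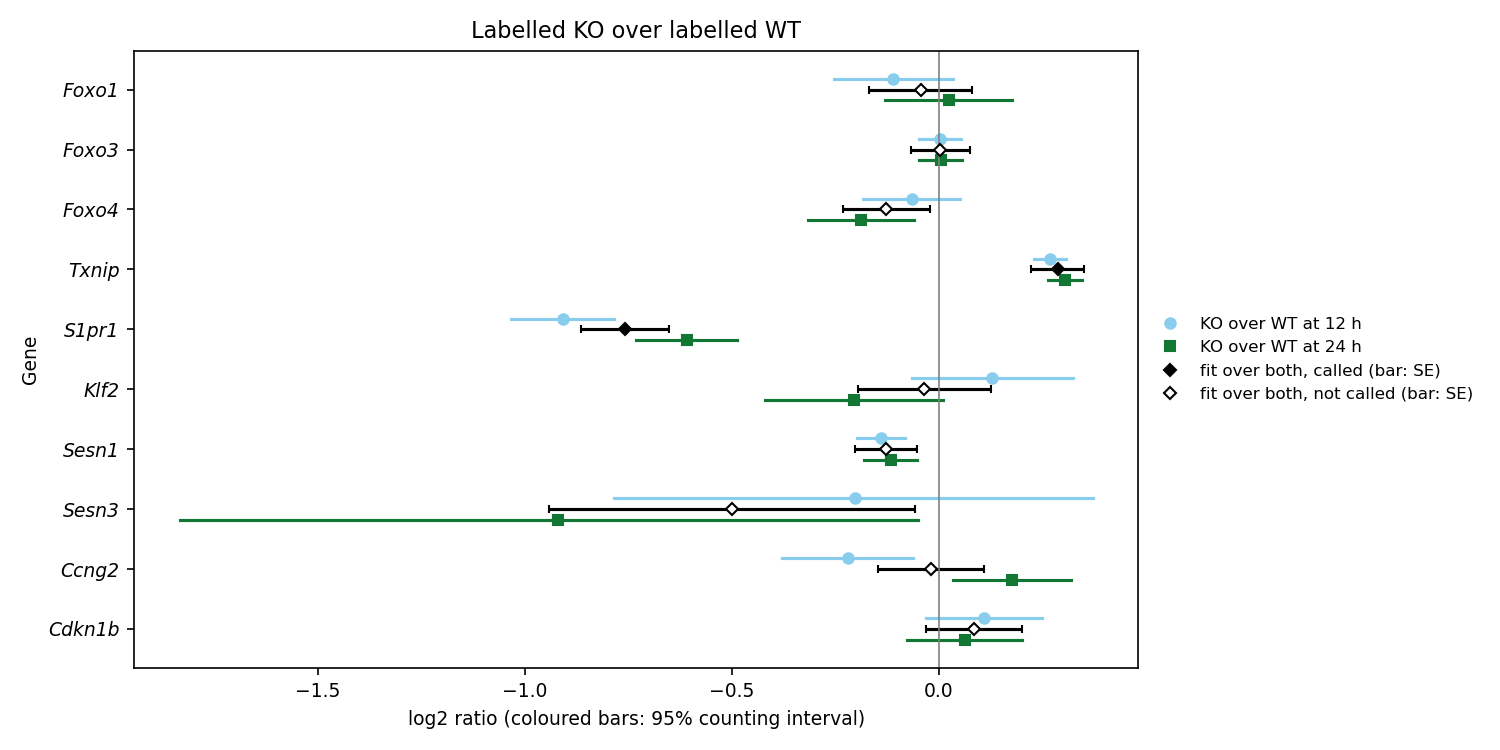
log2 ratio of the libraries labelled KO over those labelled WT at 12 h (circles) and 24 h (squares) with 95% counting intervals, and the fitted log2 fold over both times (diamonds, bar SE, filled where called). S1pr1, at -0.91 and -0.61, and Txnip, at 0.27 and 0.31, have filled diamonds, and the Ccng2 points lie on opposite sides of 0.

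By size alone, the member that differed at least 1.5-fold between the genotypes at 12 h was S1pr1, 1 of 10 beside 8.57% of genes measured at that time. At 24 h they were S1pr1 and Sesn3, 2 of 10. The share at 24 h, 9.58%, runs over genes with at least 1 CPM in either library. Sesn3, at 0.913 CPM in WT-24h and 0.483 CPM in KO-24h, is not among these, so only S1pr1 is to be set beside it. Sesn3 rests on 18 and 33 counts there, and with library totals as the scaling S1pr1 was below the mark at 24 h (log2 -0.55).

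Between 12 h and 24 h of IL-4, 0 of the 10 members were called by edgeR across both genotypes, beside 2.08% of all genes tested. DESeq2 also called 0. Apart from Sesn3, whose time fold is not read, 2 members, Foxo3 and Ccng2, had an unadjusted p under 0.05, beside 1341 of the 10993 genes tested. Ccng2 was closest to the threshold (log2 0.44, SE 0.13, edgeR adjusted p = 0.0739), with a 24 h over 12 h ratio of 1.18 in the WT-labelled pair (counting interval 1.07 to 1.31) and 1.56 in the KO-labelled pair (1.40 to 1.73). Its adjusted p was 0.0273 with no filter on low counts and 0.476 with DESeq2. Foxo3 had a time log2 fold of 0.15 (SE 0.071, adjusted p = 0.374) and Cdkn1b one of 0.20 (SE 0.12, adjusted p = 0.527), with both genotypes in the same direction for each gene. Sesn1 was lower at 24 h in both genotypes (log2 -0.12, SE 0.075, edgeR adjusted p = 0.573). For Foxo3, Cdkn1b and Sesn1 the counting intervals excluded 1 in both genotypes. Txnip had a log2 fold of -0.01 (SE 0.065, adjusted p = 0.982). By size, and again apart from Sesn3, the 1.5-fold mark was passed by 0 members in the WT-labelled pair, beside 5.07% of genes measured, and by 1, Ccng2, in the KO-labelled pair, beside 6.38%.

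**Figure D4:**
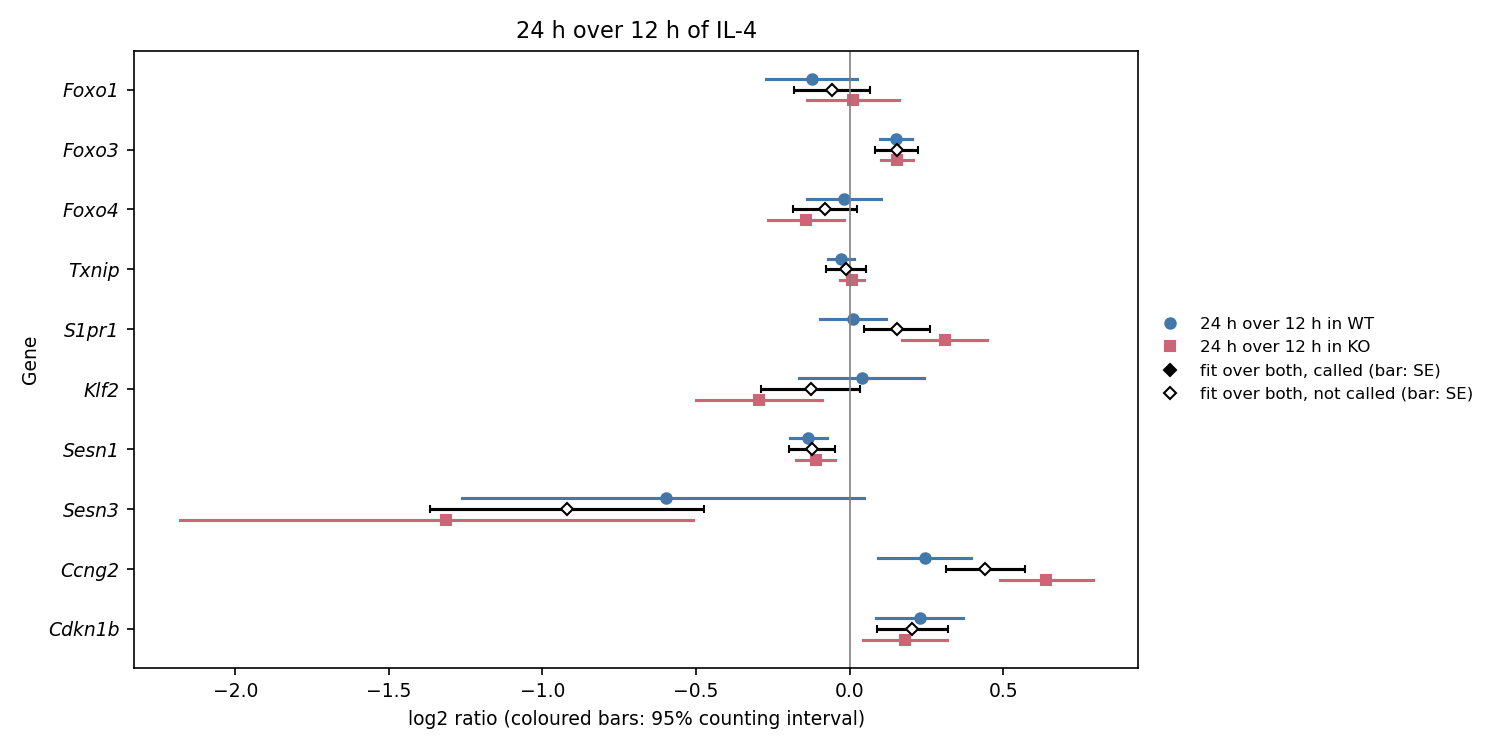
log2 ratio of 24 h over 12 h of IL-4 in the libraries labelled WT (circles) and KO (squares) with 95% counting intervals, and the fitted log2 fold over both genotypes (diamonds, bar SE, open since none was called). Ccng2 lies at 0.24 and 0.64, and the Sesn3 points rest on 18 to 57 counts and are not read.

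Further genes known as FoxO targets were called at a share to be read against the 9.52% of all genes. The list was chosen with earlier results of these data known, so this share is not read as an excess. Of 42 listed, 38 were in the table and 34 were tested, of which 3 were called higher with the KO label, 4 lower and 27 neither. Their median log2 fold was -0.06. Ccnd1, the cyclin D1 gene, which FoxO factors are known to repress, stood at 48.7 and 36.5 CPM in the WT-labelled pair and at 102 and 89.0 CPM in the KO-labelled pair (log2 1.17, SE 0.087, edgeR adjusted p = 3.09e-11). Cxcr4, a chemokine receptor gene, stood at 267 and 298 CPM in the WT-labelled pair and at 111 and 125 CPM in the KO-labelled pair (log2 -1.26). The insulin receptor gene Insr was called higher (log2 0.35) and its adaptor gene Irs2 lower (log2 -0.33). FoxO factors are known to activate both, and their part in these differences was not tested. The mitophagy gene Bnip3 was called higher (log2 0.65), and Gadd45b, a stress response gene (log2 -0.32), and Cat, the catalase gene (log2 -0.22), lower. With DESeq2, and also with time left out of the model, Ccnd1 and Cxcr4 were the 2 called. For time, Cat was called, higher at 24 h (log2 0.58, SE 0.063, adjusted p = 3.39e-07), as 1 of 34 beside 0.955% of all genes called higher and 1.13% lower. In fits without time, 2 of these targets were called for genotype without WT-12h, 5 without KO-12h, 2 without WT-24h and 6 without KO-24h. In those fits the Cat log2 fold was -0.43 without WT-12h, 0.089 without KO-12h, 0.060 without WT-24h and -0.58 without KO-24h.

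Paralogs of the members were called for genotype in 6 of 15 tested genes, 4 higher and 2 lower, beside 4.18% and 5.34% of all genes. Their median log2 fold was -0.05. This list, too, was chosen with earlier results of these data known, so its share is not read as an excess. Arrdc4, an alpha-arrestin gene that is a MondoA target like Txnip, stood at 19.1 and 20.7 CPM in the WT-labelled pair and at 25.0 and 28.2 CPM in the KO-labelled pair (log2 0.41, SE 0.11, edgeR adjusted p = 0.0154). The promoter window of Arrdc4 held the E-box CACGTG, 193 bases before its start, which 7.15% of all windows hold and 0 of the 9 member windows did. S1pr2, a further sphingosine-1-phosphate receptor gene, was lower like S1pr1, with 188 and 201 CPM in the WT-labelled pair and 143 and 138 CPM in the KO-labelled pair (log2 -0.47, SE 0.072, adjusted p = 2.39e-05). S1pr3 stood at 1.72 and 3.26 CPM in the WT-labelled pair and at 3.53 and 4.37 CPM in the KO-labelled pair. Like S1pr4 it was not called, and it was named after its values were seen. Of the kinase inhibitor genes related to Cdkn1b, Cdkn1a, which encodes p21, was called higher (log2 0.30) and Cdkn1c, which encodes p57, lower (log2 -0.49). Ccng1, which encodes cyclin G1, was higher (log2 0.36), as was Klf4, a macrophage zinc finger factor gene (log2 0.61). Over time Cdkn1a was lower at 24 h (log2 -0.41, adjusted p = 0.000392) and Cdkn1c higher (log2 0.42, adjusted p = 0.000722). DESeq2 called 5 of the 6 for genotype, all but Arrdc4. With time left out, 2 were called over all libraries, 3 without WT-12h, 3 without KO-12h, 0 without WT-24h and 2 without KO-24h. In those fits the Cdkn1a log2 fold was 0.56 without WT-12h, 0.12 without KO-12h and 0.065 without WT-24h, none of them called. That of Cdkn1c was -0.75 without WT-12h and -0.22 without WT-24h, and that of Ccng1 was 0.57 and 0.16. With genotype left out over all libraries, neither kinase inhibitor gene was called for time, nor was any other gene (0 called). In fits of time alone without 1 library, the time log2 fold of Cdkn1c ran from 0.10 to 0.71, lowest without WT-24h. That of Cdkn1a ran from -0.61 to -0.22, the latter without WT-24h.

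Genes that act on FoxO proteins were called at about the share of all genes. Of 41 kinases, phosphatases, 14-3-3 proteins and modifying enzymes tested, the KO label went with 2 called higher and 2 lower, beside 4.18% and 5.34% of all genes, and the median log2 fold was 0.0051. Besides Phlpp1, the deacetylase gene Sirt2 was higher (log2 0.31, SE 0.071, edgeR adjusted p = 0.00286). Sgk1, a kinase of the AKT family that also phosphorylates FoxO factors, was lower (log2 -0.27, SE 0.064, adjusted p = 0.00455), as was the inositol phosphatase gene Inpp5d (log2 -0.22). The AKT genes were not called, nor were the listed genes of 14-3-3 proteins. With library totals as the scaling, 2 were called (Phlpp1 and Sirt2). With time left out, Phlpp1 was the 1 called over all libraries and without WT-12h, KO-12h or WT-24h, and 3 were called without KO-24h. The Sgk1 log2 fold was -0.17 without KO-12h. For time, Phlpp1 was the 1 called, higher at 24 h (log2 0.48, adjusted p = 0.00624), and DESeq2 called 0. With genotype left out that log2 fold was -0.13 without WT-12h, 1.72 without KO-12h, 1.19 without WT-24h and -0.81 without KO-24h.

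**Figure D5:**
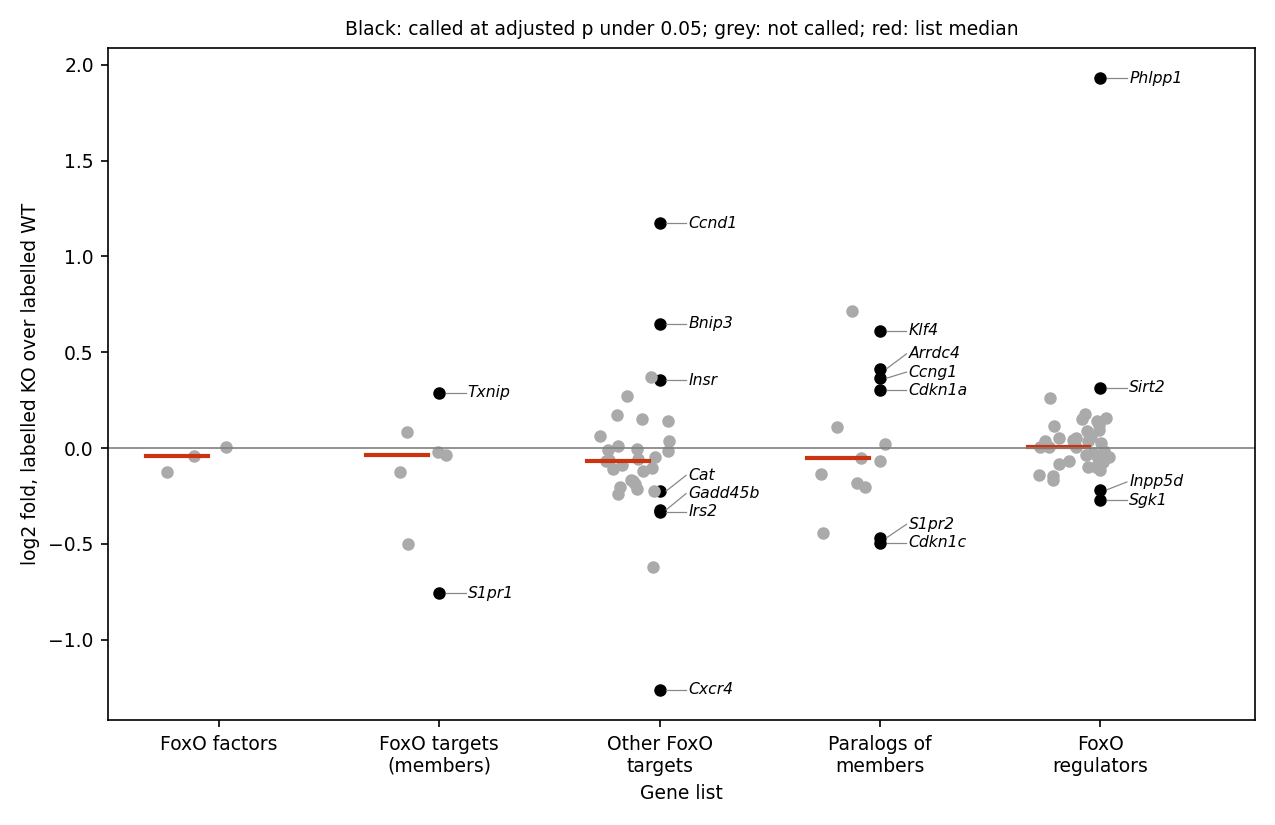
Fitted log2 fold of the libraries labelled KO over those labelled WT for each tested gene of 5 lists, in black where called and grey where not, with list medians in red. The medians lie between -0.07 and 0.01, and Ccnd1, Cxcr4 and Phlpp1 lie beyond 1 in size.

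The genes whose levels followed S1pr1 and Ccng2 most closely, which had the widest range over the libraries among members averaging at least 5 CPM, were taken by the distance of mean-centred log2(CPM + 1) values over the 4 libraries among 9235 genes. For S1pr1 they were Ccl5 at a distance of 0.045, Itga6 at 0.073 and Tmem176a at 0.078. For Ccng2 they were Galnt9 at 0.046, Saa3 at 0.049 and Polr1e at 0.075. Ccl5 stood at 82.2 and 83.3 CPM in the WT-labelled pair and at 45.5 and 53.7 CPM in the KO-labelled pair. With 4 libraries such closeness is a description.

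S1pr1 and Klf2 are also known from endothelial cells and lymphocytes, whose markers were examined. Of 12 lymphocyte markers in the table, 2 reached 1 CPM in any library, Cd79b and Lck. The summed level of all 12 was 6.50 and 5.53 CPM in the WT-labelled pair and 5.44 and 4.86 CPM in the KO-labelled pair. Of the T cell receptor complex genes, Cd3e and Cd3g were at 0 in KO-24h, while Cd3d and Cd247 stood at 0.161 and 0.134 CPM there. Of 10 endothelial markers 5 reached 1 CPM, with a summed level of 132 and 149 CPM in the WT-labelled pair and 163 and 145 CPM in the KO-labelled pair. Vwf stood at 103 to 131 CPM, Kdr at 12.2 to 17.8, Pecam1 at 10.8 to 15.7, Esam at 0.784 to 1.72 and Cdh5 at 0.939 to 2.16. The other 5 stayed below 1 CPM, with Tek at 0 in KO-12h and Cldn5 at 0 in WT-24h. None of these markers was called for genotype by edgeR (0 of 6 tested), with 1 at an unadjusted p under 0.05. Stromal markers summed to 100.2 and 117 CPM in the WT-labelled pair and to 156 and 188 CPM in the KO-labelled pair, with 6 of 8 tested called higher, none at 0 in a library. Neutrophil markers summed to 1107 and 1028 CPM in the WT-labelled pair and to 856 and 759 CPM in the KO-labelled pair, with 5 of 8 tested called lower and Ly6g at 0 in both libraries labelled WT. Macrophage markers summed to 22250 and 21030 CPM in the WT-labelled pair and to 18260 and 17310 CPM in the KO-labelled pair, with 5 of 10 called lower. Beside these counts, 4.18% of all genes tested were called higher for genotype and 5.34% lower. The part of these markers and shifts in the S1pr1 and Txnip differences was not tested.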

How the data were processed

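The authors deposited 1 table that holds raw counts and FPKM for each symbol in 4 libraries. The tools named in the submitters' processing notes are edgeR, HISAT2 and StringTie 1.3.0, with the build mm10. Not given in the sources used here were their roles, the counting tool, the annotation and the use of strand, so reads of overlapping and antisense genes (Foxo1, Txnip and Sesn1 overlap others) cannot be told apart. The deposited FPKM followed counts, gene length and library totals alone, with a largest relative deviation of 1.01e-13. Messenger RNA was captured on beads, per the labels.

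Counts were TMM-scaled over all genes and tested with edgeR 4.0.16 in R 4.3.3, by the quasi-likelihood F test with unadjusted deviances, two-sided, in a model of genotype plus time with 1 residual degree of freedom. Benjamini-Hochberg adjustment ran over the 10993 genes that reached 1 CPM in 2 or more libraries, and called means an adjusted p below 0.05. The SE is the size of the log2 fold divided by the square root of F. Ratios between 2 libraries carry exact binomial 95% intervals for counting error only, since reads had no molecular identifiers, and these have no replicate check. The fit was tested on simulated data, with 1 dispersion of 0.006 for every gene and no effect of time. For genotype, 18 of 49 genes changed 1.3-fold were called, 41 of 49 changed 1.5-fold and 47 of 49 changed 2-fold. Of unchanged genes, 13 of 10738 were called. A gene that was not called may therefore still differ by 1.3-fold, and in some cases by 1.5-fold or 2-fold, since some of those were missed too. The simulated data held no genotype difference that varied with time, so calls under such a difference were not tested. DESeq2 1.42.0 was an alternative, and the other alternatives changed scaling, filter, model terms and libraries. Outside the members, the genes named were those called in each list, up to 8 by size. Members and lists were chosen with earlier results of these data known. The labels do not say whether libraries came from separate animals. Positions are from GENCODE M21 on GRCm38 (mm10).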

Additional observations from a re-analysis of the deposited data

Results flagged for a closer look

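In 4 members the labelled genotypes or times differed in direction, and with 1 library per group none of these differences was tested. The share of all genes with such a change of sign was not counted, so these 4 are not read as a result. Among them, Ccng2 had opposite KO over WT ratios with both counting intervals clear of 1, as did 7.45% of all genes tested. Ccng2 was lower with the KO label at 12 h and higher at 24 h, and its log2 KO over WT ratio differed by 0.40 between the times. Klf2 went the other way, with a difference of -0.33 between the times, which is also the difference between the genotypes in the 24 h over 12 h ratio, and its counting intervals included 1 in all but the 24 h over 12 h ratio of the KO-labelled pair. Foxo1 changed in the direction of Ccng2, by 0.13 both between the times and between the genotypes, with counting intervals that all included 1. For Txnip the 24 h over 12 h ratio was below 1 in the WT-labelled pair and above 1 in the KO-labelled pair, a difference of 0.036 on the log2 scale, again with intervals that included 1.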

How the results depend on the processing

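The alternatives with TMM over the tested genes and with bias-adjusted deviances were chosen after seeing the data. S1pr1 was called lower in all 12 alternatives. The member count for genotype, 2, was 1 with time left out and 1 in each fit without 1 library, which also leave out time and assume that the lone library of an arm varies like the others. That for time, 0, was 1 with no filter (Ccng2) and 0 in each fit without 1 library. Over all genes, 1046 genotype calls became 516 with DESeq2, 259 with time left out and 146 to 576 without 1 library. The 229 time calls became 141 with library totals, 109 with DESeq2, 0 with genotype left out and 0 to 0 without 1 library. For further FoxO targets, 7 genotype calls became 4 with library totals, 2 with DESeq2, 2 with time left out and 2 to 6 without 1 library, and 1 time call became 2 with no filter, 2 with a 5 CPM filter and 0 with genotype left out or without 1 library. For paralogs, 6 genotype calls became 2 with time left out and 0 to 3 without 1 library, and 2 time calls became 0 with genotype left out or without 1 library. For regulators, 4 genotype calls became 2 with library totals, 1 with time left out and 1 to 3 without 1 library, and 1 time call became 0 with DESeq2, with genotype left out or without 1 library. Members past the size rule went from 1 to 0 at 12 h with a 2-fold rule, and from 2 to 0 at 24 h with that rule and to 1 with library totals, where S1pr1 was lost, or a pseudocount of 1 CPM, where Sesn3 was. Between the times, with Sesn3 counted, they went from 1 to 0 in the WT-labelled pair and from 2 to 1 in the KO-labelled pair, both with a 2-fold rule or with the pseudocount.

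Signs of uncalled folds near 0 flipped. With library totals, which moved the median genotype fold of all genes to 0.055, Foxo1 was at 0.014, Klf2 at 0.023 and Ccng2 at 0.039, and with time left out Ccng2 was at 0.0083. Without 1 library, genotype log2 folds ran from -0.10 to 0.019 for Foxo1, -0.074 to 0.083 for Foxo3, -0.18 to 0.11 for Klf2, -0.70 to 0.058 for Sesn3, -0.34 to 0.295 for Ccng2 and -0.024 to 0.20 for Cdkn1b, and from -0.58 to 0.089 for Cat, which was called. Time folds ran from -0.17 to 0.013 for Foxo4, -0.17 to 0.14 for Txnip, -0.26 to 0.65 for S1pr1 and -0.81 to 1.72 for Phlpp1. The fits without 1 library held genotype or time alone, with 1 library in an arm. A genotype fold there also holds part of any difference over time, and a time fold part of any genotype difference. Beyond this, the cause of these shifts was not tested. No paired analysis was possible because each group had 1 library. Sesn3 is limited by 18 to 57 counts, and its range without 1 library rests on 2 fits, those without a 24 h library. In the fits without a 12 h library it did not pass the filter.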
